A study of Homo sapiens with 9 samples.

Results

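CCCGGG sites that were almost free of methylation, and that lay in DNA with few other such sites, were followed in HEK293T cells, a derivative of human embryonic kidney 293 cells with the SV40 T antigen. A site was taken here when it was on an autosome, had a value in all 9 libraries, averaged under 5% methylation over the 9 libraries, and had 0 to 2 other listed CCCGGG sites within 1000 bases on the hg19 genome. There were 9156 such sparse unmethylated sites, which made up 15.3% of the 59751 sites with a value in every library and 40.7% of the 22479 autosomal sites under 5%. The members were chosen by their measured mean over all 9 libraries and by the positions of the sites, and differences between groups are no part of the rule. The low level of these sites is therefore a consequence of the choice. The rule was set with earlier results of these data known, and by requiring a value in every library it keeps, at long distances, the few sites that the library with fewest sites covered.

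The 9 libraries formed 3 groups of 3. All cells received a pIRES expression plasmid by Lipofectamine 2000, and genomic DNA was taken 4 days later. The empty vector group received the plasmid without an insert, the TET1-FL group received full-length TET1, and the TET1-ALT group received an isoform of TET1 that, per the series title, has no CXXC domain. Both TET1 groups are overexpression models, and the transfected share of the cells was not given in the sources used here. Replicates are numbered in the labels, which do not say whether they were separate cultures, so the spread between libraries may be technical.

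TET1 is a dioxygenase that oxidises 5-methylcytosine, the first step of active demethylation. The CXXC domain is a zinc finger that binds DNA rich in CpG, and CpG islands, the CpG-rich stretches at many promoters, are mostly kept free of methylation. CCCGGG contains a CpG at its centre and occurs often in such islands, so sites with many close neighbours tend to lie in them, and sparse unmethylated sites are those with fewer CCCGGG copies around them.

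In digital restriction enzyme analysis of methylation (DREAM), SmaI cuts CCCGGG where the CpG is unmethylated, and XmaI then cuts the remaining copies. A sequenced fragment runs from 1 cut site to the next and is size selected, so the distance to the nearest listed CCCGGG site serves as a stand-in for fragment length. Ranges of that distance leave out the lower limit and include the upper one. The deposited values are percentages. Each required at least 20 reads per the labels, and since the depth of single values is unknown beyond that, they carry no counting interval. The libraries held values at 61549 to 72340 sites. The lowest number belonged to empty vector replicate 3, whose values stood apart from the other libraries at long distances, and the means by distance and by level at long distance are given with and without it. The least methylated of 8 sequences outside the genome read 6.64 to 7.35% in the empty vector group, 6.32 to 6.94% with TET1-ALT and 6.20 to 7.22% with TET1-FL.

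Sparse unmethylated sites usually had company. Of the 9156 sites, 4819 had 2 listed neighbours within 1000 bases, 4296 had 1, and 41 had 0. The share of complete autosomal sites under 5% rose with the number of neighbours: it was 13.4% of 305 sites with 0 neighbours, 21.7% of 19801 with 1, 33.1% of 14538 with 2 and, just outside the rule, 46.6% of 8986 with 3. Over the whole range, 26.4% of complete autosomal sites with 0 to 2 neighbours were under 5%, against 56.3% of those with 3 or more.

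The nearest listed site lay at a median of 264 bases, with a range from 71 bases at the 5th percentile to 577 bases at the 95th. Only 41 members (0.448%) had none within 1000 bases. Among all listed autosomal sites with 0 to 2 neighbours, 208254 (65.2%) had none within that distance. Of those 208254, 0.146% had a value in every library. Among the 34644 complete autosomal sites with 0 to 2 neighbours, 305 had 0. Isolated CCCGGG sites are thus hardly represented among complete sites of any level, and so among the members.

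Levels within the set were skewed towards 0. The 9-library mean had a median of 0.242%, quartiles of 0.119 and 0.696%, and a 95th percentile of 3.22%. By level, 1779 sites averaged under 0.1%, 2894 lay from 0.1 to 0.25%, 1564 from 0.25 to 0.5%, 1234 from 0.5 to 1%, 772 from 1 to 2% and 913 from 2 to 5%. Most members were thus far from the 5% limit. None held an exact 0, and the lowest value in every library was 0.02%. The 3 lowest sites all lay on chromosome 1, at hg19 positions 65613439, 33647244 and 94884176, and averaged 0.0233, 0.0244 and 0.0256%. The sites just inside the limit were chr4:1871981 and chr18:73769564, both at 4.99%, and chr18:21082655 at 4.98%, while those just outside were chr14:90091993 and chr17:38501996, at 5.001 and 5.003%, and chr20:44911390 at 5.006%. Single libraries crossed the limit even inside the set: 151, 152 and 163 members read above 5% in the 3 empty vector libraries, 123, 95 and 92 in those with TET1-ALT, and 70, 92 and 76 in those with TET1-FL.

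Unmethylated sites lay beside unmethylated sites. A complete site was found within 1000 bases of 8358 members (91.3%), and for 6689 of these the nearest was itself a member. Of these 8358, the nearest complete site was under 5% for 7352 (88.0%), from 5 to 20% for 461, from 20 to 80% for 420 and at 80% or more for 125. Among all 58310 complete autosomal sites, 22479 were under 5%. The members' own level followed that order at its lower end. Empty vector means were 0.519% ± 0.0381 (SD, n = 3 libraries) beside an unmethylated site and 1.65% ± 0.0328 beside one of 5 to 20%, with 1.84% ± 0.0661 and 1.77% ± 0.137 beside the 2 more methylated classes. The last of these did not differ from the one before it beyond the spread of the libraries.

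Measured sites of high methylation were mostly far away. Only 58310 of the 357624 listed autosomal sites had a value in every library, so closer methylated DNA may have gone unseen. The median distance to a complete site of 80% or more was 51965 bases. It was 24541 bases for sites under 5% with 3 or more neighbours. The closest complete site of 80% or more lay beyond 5000 bases for 8081 members (88.3%), and within 250 bases for 16. The 3 shortest distances marked steep steps in methylation. At chr11:1043524 the member averaged 3.76% and a site 107 bases away averaged 95.9%. At chr19:55976025 the averages were 4.80% and, 112 bases away, 94.5%. At chr9:136435765 they were 3.36% and, 117 bases away, 85.3%. The 16 members of this kind averaged 2.74% in the empty vector group, 2.87% with TET1-ALT and 2.78% with TET1-FL, with overlapping libraries in each comparison.

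Members were found on all 22 autosomes, from 108 on chromosome 21 to 874 on chromosome 1, and in 1857 stretches of 1 Mb, with a median of 4 per stretch. The fullest was chr19:1000001-2000000, with 46 members and a mean of 0.789%. It was followed by chr22:49000001-50000000, with 39 members and the higher mean of 2.00%, and by chr16:30000001-31000000, with 33 at 0.460%. The next were chr19:18000001-19000000, with 32 at 0.799%, and chr19:42000001-43000000, with 31 at 0.529%. The gene context of sites was not analysed here, because no annotation of the hg19 build was used.

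The residual methylation of these sites was lower with full-length TET1 than with the empty vector when averaged over all of them. The mean over all members was 0.703, 0.708 and 0.786% in the empty vector libraries and 0.627, 0.615 and 0.629% in the TET1-FL libraries. Every TET1-FL library lay below every empty vector library. The group means were 0.732% ± 0.0463 and 0.624% ± 0.0075 (SD, n = 3 each), a difference of -0.108 percentage points, and the 9 differences between single libraries ran from -0.170 to -0.0739. At the median site the difference was -0.0267 points, against -0.183 over all complete sites.

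No single sparse unmethylated site passed the test between TET1-FL and the empty vector. A limma model fitted to all 59751 complete sites called 0 members, and 0% of all complete sites, at an adjusted p under 0.05 (lowest adjusted p of a member 0.138). At an unadjusted p under 0.05 the same limma fit gave 939 lower members (10.3%, against 9.72% of all complete sites) and 77 higher (0.841%, against 1.11%). All 3 TET1-FL values were below all 3 empty vector values at 1567 members (17.1%, against 14.9% of all complete sites) and above them at 185 (2.02%, against 2.13%). These shares were close to those over all sites. The TET1-FL mean was the lower one at 59.8% of members, against 66.4% of all complete sites.

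TET1-ALT gave a lower mean of similar size. Its libraries averaged 0.662, 0.635 and 0.659% over the members, all below the empty vector libraries. The group mean was 0.652% ± 0.0148 (SD, n = 3), which differed from the empty vector by -0.0806 points, with single-library differences from -0.151 to -0.0417. At the median site the difference was -0.0167 points, against -0.0367 over all complete sites, and the TET1-ALT mean was the lower one at 56.2% of members, against 56.3%. The limma fit again called 0 members and 0% of all complete sites (lowest adjusted p 0.247), with 937 members lower at an unadjusted p under 0.05 (10.2%, against 5.49% of all complete sites) and 115 higher (1.26%, against 1.73%). The 3 libraries lay below the empty vector at 1598 members (17.5%, against 10.1% of all complete sites) and above it at 200 (2.18%, against 3.14%). The lower share was above that of all sites over the whole set, and below it at short distance, as given next. Both comparisons share the 3 empty vector libraries.

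The difference depended on how far the next CCCGGG site was. At the 4478 members (48.9%) with the nearest listed site 100 to 300 bases away, the libraries averaged 0.572, 0.552 and 0.566% with the empty vector, 0.546, 0.555 and 0.613% with TET1-ALT, and 0.523, 0.523 and 0.572% with TET1-FL. The groups overlapped, with means of 0.563% ± 0.00983, 0.571% ± 0.0367 and 0.539% ± 0.0283 (SD, n = 3 each). TET1-FL differed from the empty vector by -0.0240 points (single-library differences -0.0492 to 0.0196) and TET1-ALT by 0.00807 points (-0.0259 to 0.0609). The direction of single sites was the other way: the TET1-FL mean was the higher one at 52.6% of these members and the lower one at 44.0%, against 65.0% lower over all complete sites at that distance, and the median site differed by 0.00333 points. All 3 TET1-FL libraries were lower at 171 of these sites (3.82%, against 13.0% of all complete sites at that distance), and all 3 TET1-ALT libraries at 136 (3.04%, against 6.52%).

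At the 2352 members (25.7%) with the nearest site 400 to 1000 bases away, the picture was another. The empty vector libraries averaged 1.00, 1.05 and 1.30%, those with TET1-ALT 0.916, 0.827 and 0.747%, and those with TET1-FL 0.858, 0.828 and 0.742%. No library of either TET1 group reached the lowest empty vector library. Group means were 1.12% ± 0.158, 0.830% ± 0.0846 and 0.810% ± 0.0603, and the differences from the empty vector were -0.309 points for TET1-FL and -0.289 points for TET1-ALT. All 3 libraries were lower at 1044 sites with TET1-FL (44.4%, against 20.1% of all complete sites at that distance) and at 1004 with TET1-ALT (42.7%, against 16.1%). Of all members low in this sense, 66.6% with TET1-FL and 62.8% with TET1-ALT came from this range, and 10.9 and 8.51% from 100 to 300 bases.

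**Figure D1:**
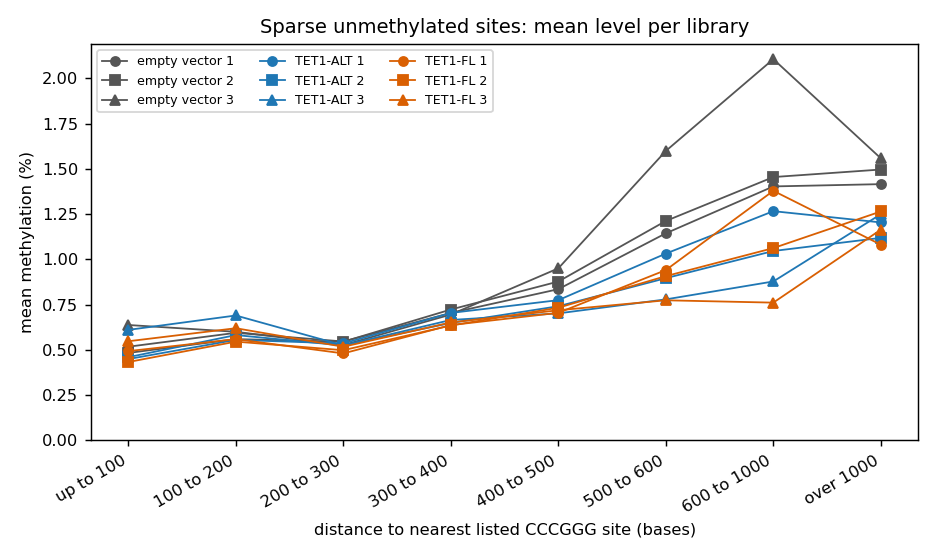
Mean methylation (%) of the sparse unmethylated sites in each of the 9 libraries, by distance in bases to the nearest listed CCCGGG site; each line is 1 library, with grey for empty vector, blue for TET1-ALT and orange for TET1-FL. The lines run together from 100 to 300 bases and part beyond 400 bases, where empty vector replicate 3 reaches 2.11% at 600 to 1000 bases and TET1-FL replicate 3 stays at 0.761%.

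Finer steps of distance showed where the groups parted. At 100 to 200 bases (2410 sites) TET1-FL differed from the empty vector by -0.00967 points and TET1-ALT by 0.0245 points, and at 200 to 300 bases (2068 sites) by -0.0406 and -0.0111 points. The difference grew to -0.0663 and -0.0347 points at 300 to 400 bases (1505 sites), to -0.169 and -0.149 points at 400 to 500 bases (1285 sites), and to -0.444 and -0.416 points at 500 to 600 bases (815 sites). At 600 to 1000 bases (252 sites) it was -0.587 and -0.591 points, and without empty vector replicate 3 it was -0.361 and -0.365 points. Members within 100 bases of another site (780) differed by -0.0548 and -0.0395 points, with overlapping libraries in both cases. The course was thus not even over the shortest distances. In the limma fit, 10.0% of these members were lower at an unadjusted p under 0.05 with TET1-FL and 11.2% with TET1-ALT. Over all complete sites in that range the shares were 7.71 and 6.13%. At 100 to 200 bases they were 2.49 and 1.87% of members, against 7.76 and 3.10% of all complete sites.

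The libraries also differed in how many sites they covered at these distances. Of all listed autosomal sites with 0 to 2 neighbours, every library had values at 71.1 to 71.9% of those with the nearest site 100 to 200 bases away and at 60.7 to 61.2% of those at 200 to 300 bases. Within 100 bases the shares were lower and uneven, from 15.2% in TET1-ALT replicate 3 to 21.0% in TET1-ALT replicate 1. At 500 to 600 bases the shares were 47.9, 46.4 and 37.1% in the empty vector libraries, 48.5, 49.3 and 49.8% with TET1-ALT and 48.2, 49.2 and 49.96% with TET1-FL. At 600 to 1000 bases they were 8.70, 6.52 and 2.02%, then 11.1, 13.9 and 17.6%, then 7.29, 13.3 and 22.9%, in the same order of libraries. The empty vector group had the lowest average at both steps, with 43.8 and 5.74% against 49.2 and 14.2% for TET1-ALT and 49.1 and 14.5% for TET1-FL.

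**Figure D2:**
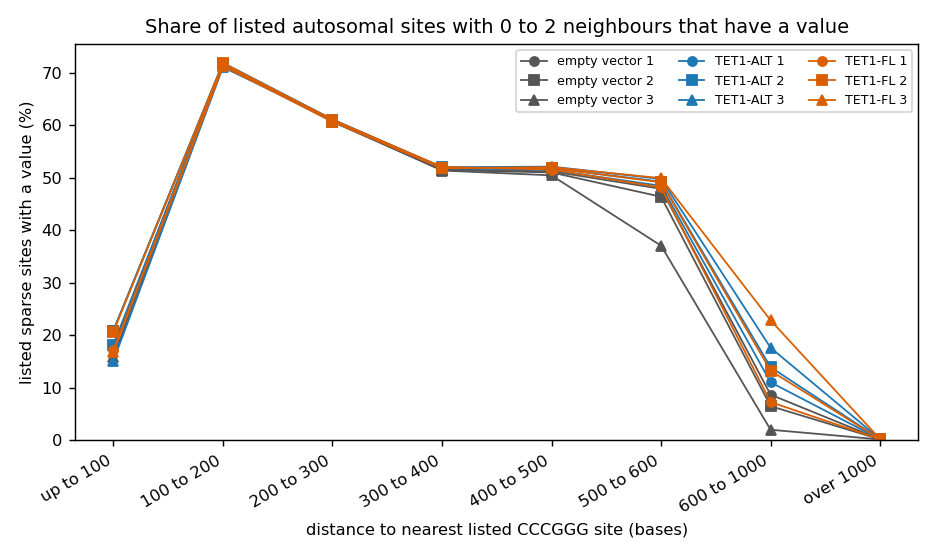
Share (%) of all listed autosomal sites with 0 to 2 neighbours that had a value in each library, by distance in bases to the nearest listed CCCGGG site; each line is 1 library. The 9 lines coincide from 100 to 400 bases and spread at 600 to 1000 bases, from 2.02% in empty vector replicate 3 to 22.9% in TET1-FL replicate 3.

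Levels and coverage ran in mostly opposite order at the longest distances. At 600 to 1000 bases the 252 members averaged 1.40, 1.45 and 2.11% in the empty vector libraries, 1.27, 1.05 and 0.878% with TET1-ALT, and 1.38, 1.06 and 0.761% with TET1-FL. Empty vector replicate 3 had the highest level and the lowest covered share of the 9 libraries, and TET1-FL replicate 3 had the lowest level and the highest covered share. TET1-FL replicate 1, at 1.38%, and empty vector replicate 1, at 1.40%, were close in level and had neighbouring covered shares, 7.29 and 8.70%. Only this pair departed from the opposite order, by the small gap between their levels. The low end of the values differed between libraries too: the 10th percentile of the values was 0.541, 0.660 and 1.11% in the empty vector libraries, 0.460, 0.320 and 0.240% with TET1-ALT and 0.540, 0.340 and 0.170% with TET1-FL, while at 200 to 300 bases it was 0.04 to 0.06% in all 9. These values are given beside the group differences, and the part of coverage in them was not tested.

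Without empty vector replicate 3 the differences were smaller and kept their direction at long distance. At 400 to 1000 bases they were -0.219 points for TET1-FL (single-library differences -0.313 to -0.144) and -0.199 points for TET1-ALT (-0.308 to -0.0866). At 400 to 500 bases they were -0.138 and -0.117 points, and at 500 to 600 bases -0.304 and -0.276 points in place of -0.444 and -0.416. At 100 to 300 bases the differences were -0.0228 and 0.00924 points, and for members within 100 bases of another site they were -0.00905 and 0.00620 points. Over all members the differences without that library were -0.0814 points for TET1-FL and -0.0539 points for TET1-ALT, and the limma fit without it gave 663 and 636 lower members at an unadjusted p under 0.05 in place of 939 and 937. These were 7.24% of members against 8.49% of all complete sites with TET1-FL, now below the share over all sites, and 6.95% against 4.80% with TET1-ALT.

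**Figure D3:**
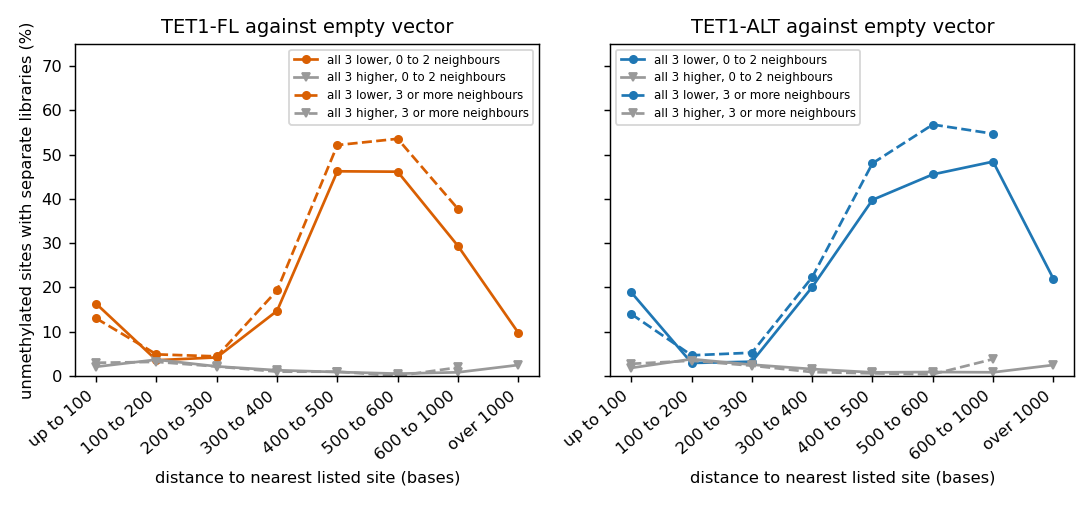
Share (%) of unmethylated sites whose 3 TET1-FL (left) or 3 TET1-ALT (right) values all lay below (coloured) or all above (grey) the 3 empty vector values, by distance in bases to the nearest listed site; solid lines are sites with 0 to 2 neighbours and dashed lines are sites with 3 or more. Solid coloured lines rise from 4.16% with TET1-FL and 3.19% with TET1-ALT at 200 to 300 bases to 46.1 and 45.5% at 500 to 600 bases. Over all complete sites, which are not drawn, the lower share also rose. It was 13.0% with TET1-FL and 6.52% with TET1-ALT at 100 to 300 bases, and 20.1 and 16.1% at 400 to 1000 bases.

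A lower level with TET1-FL was also seen among the members with most methylation at short distance, a subset examined after the values were seen. The 363 members with a 9-library mean of 2 to 5% and the nearest site 100 to 300 bases away averaged 3.44, 3.36 and 3.40% in the empty vector libraries, 3.40, 3.25 and 3.30% with TET1-ALT and 3.11, 3.24 and 3.11% with TET1-FL. All TET1-FL libraries were below all empty vector libraries, while those with TET1-ALT overlapped them. TET1-FL differed from the empty vector by -0.245 points (single-library differences -0.336 to -0.117) and TET1-ALT by -0.0795 points (-0.188 to 0.0426). TET1-FL was also below TET1-ALT here, by -0.166 points (-0.295 to -0.0124), and its 3 libraries were below the empty vector at 43 of the 363 sites (11.8%, near the 13.0% over all complete sites at that distance).

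The 311 members from 1 to 2% at this distance followed the same order. Their empty vector libraries averaged 1.46, 1.40 and 1.44%, and the TET1-FL libraries averaged 1.31, 1.28 and 1.36%, with no overlap and a difference of -0.117 points (single-library differences -0.184 to -0.0385). TET1-ALT, at 1.34, 1.36 and 1.57%, overlapped both groups and differed from the empty vector by -0.0105 points. Below 1% no difference was larger than the spread: TET1-FL differed by 0.00412 points at 448 sites of 0.5 to 1%, by 0.0144 points at 658 sites of 0.25 to 0.5%, by 0.00299 points at 1441 sites of 0.1 to 0.25% and by 0.00203 points at 1257 sites under 0.1%. All of these had overlapping libraries.

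At 400 to 1000 bases the members were lower at every level. TET1-FL differed from the empty vector by -0.0371 points at 72 sites under 0.1%, by -0.0943 at 562 sites of 0.1 to 0.25%, by -0.224 at 590 sites of 0.25 to 0.5%, by -0.436 at 524 sites of 0.5 to 1%, by -0.428 at 282 sites of 1 to 2% and by -0.590 at 322 sites of 2 to 5%. The TET1-ALT differences, in the same order, were -0.0366, -0.0898, -0.215, -0.442, -0.422 and -0.461. The libraries of both groups were apart from the empty vector in each of the 6 classes. Without empty vector replicate 3 they remained apart, and the differences were smaller, at -0.0269, -0.0603, -0.133, -0.270, -0.286 and -0.557 points with TET1-FL and -0.0263, -0.0559, -0.125, -0.275, -0.280 and -0.428 points with TET1-ALT.

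**Figure D4:**
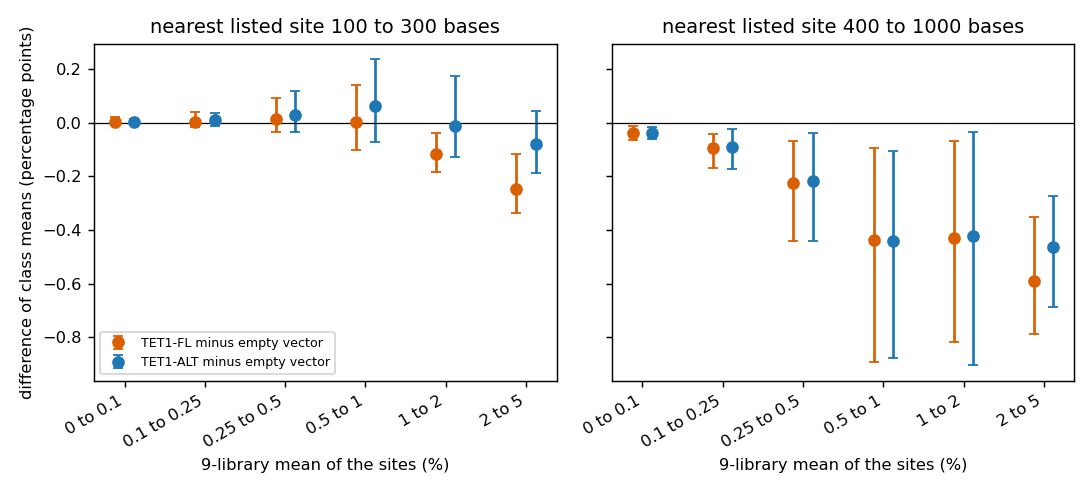
Difference in mean methylation from the empty vector (percentage points) for TET1-FL (orange) and TET1-ALT (blue), by the 9-library mean of the sites (%), at short (left) and long (right) distance to the nearest listed site; points are differences of group means and bars are the lowest and highest of the 9 differences between single libraries. On the left the differences lie near 0 except for TET1-FL at 1 to 2% (-0.117) and 2 to 5% (-0.245), and on the right all are below 0.

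Beside more methylated sites the difference was larger, as was the members' own level. TET1-FL differed from the empty vector by -0.0773 points at members beside an unmethylated complete site, by -0.170 beside one of 5 to 20%, by -0.243 beside one of 20 to 80% and by -0.304 beside one of 80% or more, where the median distance to that site also rose, from 263 to 317, 359 and 427 bases. With the nearest listed site held to 100 to 300 bases, the differences were -0.0147 points at 3923 sites, -0.0987 at 200, -0.135 at 144 and -0.146 at 27. Of these, the libraries were apart only for the 144 members beside a site of 20 to 80%, which averaged 2.06, 2.11 and 2.14% with the empty vector and 1.95, 1.95 and 2.01% with TET1-FL.

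The comparison of TET1-FL with TET1-ALT sets full-length TET1 against the isoform without the CXXC domain. Over all members TET1-FL was the lower of the 2, with a difference of -0.0275 points and single-library differences from -0.0461 to -0.00526, so the libraries did not overlap. The limma fit called 0 members and 0% of all complete sites (lowest adjusted p of a member 0.830), with 172 lower at an unadjusted p under 0.05 (1.88%, against 4.46% of all complete sites) and 104 higher (1.14%, against 1.1%). The libraries were apart at 236 lower members (2.58%, against 7.36%) and 151 higher members (1.65%, against 1.94%). The TET1-FL mean was the lower one at 49.0% of members, against 60.4% of all complete sites. Of the 236, 121 lay at 100 to 300 bases, which is 2.70% of the members there against 7.94% of all complete sites, and 63 at 400 to 1000 bases, which is 2.68% against 7.31%. The mean differed by -0.0320 points at the short distance (single-library differences -0.0908 to 0.0263) and by -0.0205 at the long one (-0.174 to 0.111), with overlap in both.

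Sites in denser DNA gave the same picture by distance. The 13323 autosomal sites under 5% with 3 or more neighbours had a lower level (median 0.176%), and their TET1-FL and TET1-ALT means differed from the empty vector by -0.0484 and -0.0280 points, with overlapping libraries. At 100 to 300 bases these differences were -0.0191 and 0.00175 points, and at 400 to 1000 bases -0.255 and -0.239 points. Sparse sites exceeded dense ones within every library, by 0.300 points on average with the empty vector, 0.248 with TET1-ALT and 0.240 with TET1-FL. With a limit of 2% in both sets these gaps were 0.116, 0.0741 and 0.0735 points, and between the medians of the sets they were 0.0867, 0.06 and 0.05 points. At 100 to 300 bases the mean gaps were 0.191, 0.197 and 0.186 points, and their change from the empty vector, 0.00631 points with TET1-ALT and -0.0049 with TET1-FL, was within the spread of the libraries.

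Sparse sites that carry methylation did not follow the course of the members with distance. At sparse sites of 20 to 80% TET1-FL differed from the empty vector by -1.996 points at 100 to 200 bases, -2.02 at 200 to 300 and -1.97 at 500 to 600. At sparse sites over 95% the difference was -0.497 points at 100 to 200 bases, -0.199 at 400 to 500 and 0.0728 at 500 to 600, with overlapping libraries at the last 2. The members, at the opposite end of the scale, became more negative over the same distances. The differences between these courses were not tested.

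The direction of the mean was shared by the chromosomes. All of them were measured in the same 9 libraries, so the counts below are not independent repeats of the result. TET1-FL was below the empty vector on 22 of 22 autosomes, with separate libraries on 20, and its difference ran from -0.207 points on chromosome 21 to -0.0581 on chromosome 14. TET1-ALT was below it on 22, with separate libraries on 17, from -0.190 points on chromosome 21 to -0.0414 on chromosome 8. At 100 to 300 bases TET1-FL was lower on 21 of 22 autosomes and TET1-ALT on 9, although the TET1-FL mean was the higher one at 52.6% of these members.

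No single site passed the test, and the sites named next are those with the largest separate differences. The 3 most negative with TET1-FL lay 619, 621 and 649 bases from the nearest listed site. At chr18:21082655 the empty vector libraries read 5.74, 8.24 and 10.09%, those with TET1-ALT 3.60, 6.58 and 3.49%, and those with TET1-FL 2.53, 3.14 and 1.44%, a TET1-FL difference of -5.65 points (limma SE 1.26, adjusted p 0.381). At chr6:31737660 the values were 4.17, 9.05 and 7.27%, then 4.46, 1.87 and 1.34%, then 1.25, 0.34 and 2.39%, a difference of -5.50 points. At chr2:12233285 they were 7.65, 4.19 and 9.89%, then 0.93, 3.99 and 1.88%, then 1.18, 3.30 and 1.40%, and both TET1 groups were below the empty vector, by -5.28 points with TET1-FL and -4.98 with TET1-ALT.

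Separate positive differences were fewer, and the largest were smaller in size than the negative ones. At chr8:23652933, 559 bases from the nearest site, the empty vector libraries read 2.00, 0.98 and 1.67%, those with TET1-ALT 3.38, 5.00 and 6.88% and those with TET1-FL 4.70, 3.93 and 5.36%, so both TET1 groups were higher, by 3.54 and 3.11 points. At chr5:133437784 TET1-FL read 3.46, 2.96 and 5.15% against 1.94, 0.81 and 1.04%, while TET1-ALT, at 1.58, 4.07 and 0.44%, overlapped both. At chr17:59487108 the nearest site was only 161 bases away, and the values were 0.14, 0.75 and 0.15% with the empty vector, 1.13, 2.08 and 3.41% with TET1-ALT and 2.27, 3.28 and 1.82% with TET1-FL, a difference of 2.11 points for TET1-FL (limma SE 0.593, adjusted p 0.398) and 1.86 for TET1-ALT. Each TET1 library was above each empty vector library at this site, which did not pass the test.

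Some differences belonged to TET1-ALT by their values. At chr19:22700259 the empty vector libraries spread from 1.86 to 6.41 and 16.88%, TET1-ALT read 0.60, 1.03 and 0.89% and TET1-FL 4.14, 4.84 and 4.55%. At chr6:47638176 TET1-ALT read 0.83, 1.44 and 0.86% against 4.84, 8.88 and 7.81% with the empty vector, and TET1-FL, at 8.50, 2.12 and 2.55%, overlapped the latter. At chr19:36749225 it was the highest group instead, with 9.28, 9.19 and 5.75% against 2.89, 5.29 and 1.30% with the empty vector and 0.88, 4.56 and 3.05% with TET1-FL. These 3 sites lay 548, 582 and 595 bases from the nearest listed site. Between the 2 isoforms, chr1:28197508, 165 bases from the nearest site, read 5.14, 4.40 and 4.84% with TET1-ALT and 1.22, 2.86 and 1.67% with TET1-FL, a difference of -2.88 points, and the empty vector libraries, at 3.64, 5.80 and 3.00%, were near the former. The remaining sites that the rule names were chr17:73044331, higher with TET1-ALT than with the empty vector by 3.09 points, chr2:85085043, lower with TET1-FL than with TET1-ALT by -2.75 points, and chr16:22824649, higher by 3.57.

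At 100 to 300 bases the largest separate differences, a selection made after the values were seen, were smaller. TET1-FL was lowest against the empty vector at chr8:21480467, where the libraries read 3.95, 4.68 and 5.38% with the empty vector and 1.01, 3.29 and 1.66% with TET1-FL, while TET1-ALT, at 4.86, 3.57 and 5.02%, stayed near the former. At chr14:60982017 the values were 5.92, 5.92 and 7.11% with the empty vector, 3.19, 5.91 and 4.46% with TET1-ALT and 5.44, 3.43 and 3.30% with TET1-FL. The most negative TET1-ALT difference was at chr19:18497006, with 6.66, 4.83 and 6.46% for the empty vector, 4.72, 3.07 and 2.90% for TET1-ALT and 3.38, 4.80 and 6.38% for TET1-FL. The most positive was at chr2:238768326, where TET1-ALT read 1.85, 2.11 and 5.81% against 1.20, 0.69 and 1.02%.

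**Figure D5:**
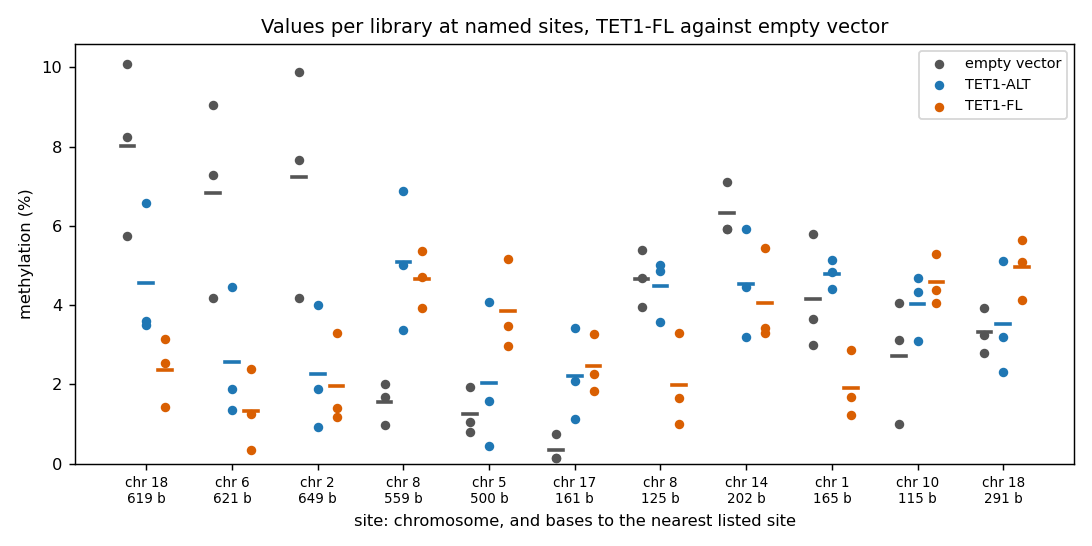
Methylation (%) in each library at 11 named sites of the comparison of TET1-FL with the empty vector, each labelled by chromosome and by the bases (b) to its nearest listed site; points are libraries, bars are group means, grey is empty vector, blue TET1-ALT and orange TET1-FL. The 3 sites at the left, 619 to 649 bases from another site, have empty vector values of 4.17 to 10.09% above all TET1-FL values, and the fourth to sixth have the opposite order.

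The spread between replicates was large beside the levels, though smaller than them at the median. The median SD within groups was 0.131 points over all members, 0.102 at 100 to 300 bases and 0.245 at 400 to 1000 bases. The median levels of the same sets were 0.242, 0.18 and 0.467%. The median site difference from the empty vector over all members was -0.0267 points with TET1-FL and -0.0167 with TET1-ALT, smaller in size than the median SD. At 400 to 1000 bases it was -0.203 and -0.188 points, beside the median SD of 0.245. Single sites were not compared with their own spread. The means over all members differed by -0.108 and -0.0806 points with no overlap between libraries.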

How the data were processed

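DREAM was run on 9 libraries of HEK293T DNA. Per the labels' protocols, DNA with spiked-in standards was cut with SmaI and then XmaI, slices of 2 fragment sizes were amplified with 18 PCR cycles, and a value required 20 reads. The deposited percent values were made by the authors as methylated over all reads per site, corrected for enzyme efficiency with the standards, per the series' design text. Site names in the file headers and the submitters' processing notes give the build as hg19. The aligner is not given in the sources used here.

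Neighbours and distances were computed from all 382289 listed hg19 sites, with or without values. limma 3.58.1 (R 4.3.3) was fitted to the percentages of the 59751 complete sites in all 9 libraries, with group means, trend and robust moderation, and Benjamini-Hochberg adjustment ran over all 59751. The code was tested on simulated data, with losses placed only at the more methylated members. That test does not show what loss could be called at the other members. Means over members, with SD over 3 libraries and the range of the 9 single-library differences, carry no test. A site is called separate when all 3 values of a group lie below, or all above, those of the other.

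Named sites are the 3 most negative and 3 most positive separate differences per comparison, the 3 sites nearest the 5% limit on each side, those with the lowest mean, the closest site of 80% or more and the largest SD, and the 5 fullest stretches of 1 Mb. The members, lists and rules were chosen with earlier results of these data known. The set with the nearest listed site 100 to 300 bases away, the values without empty vector replicate 3 and the sites named at short distance were added after seeing the data. A further 18 sites lay on 8 non-genomic sequences, presumed to be the standards, and stayed out of the fit. No 2 libraries of a group held the same values at more than 13.8% of members.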

Additional observations from a re-analysis of the deposited data

How the results depend on the processing

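The limma fit called 0 members in each of the 3 comparisons under all 18 settings, planned or leaving out a library. The lowest adjusted p over those settings was 0.124 to 0.520 for TET1-FL against the empty vector, 0.129 to 0.794 for TET1-ALT against it and 0.0648 to 0.924 between the isoforms. Counts at an unadjusted p under 0.05 moved more, both with a left-out library and with the form of the fit. Lower members with TET1-FL fell from 939 to 370 (4.04% of members, against 6.88% of all sites) without TET1-FL replicate 3 and to 512 (5.59%, against 7.93%) without replicate 2. The members' share with TET1-FL thus went from above to below that of all sites. Those with TET1-ALT fell from 937 to 396 (4.33%, against 3.05%) without TET1-ALT replicate 3 and to 444 (4.85%, against 3.64%) without replicate 2. Without empty vector replicate 1 the counts rose instead, to 1274 with TET1-FL (13.9%, against 9.64%) and to 1261 with TET1-ALT (13.8%, against 6.46%). With all 9 libraries, but without trend and robust moderation, lower members were 449 with TET1-FL (4.90%, against 8.67%) and 472 with TET1-ALT (5.16%, against 4.31%). The cause was not tested.

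The replicate numbers did not pair the libraries: deviations from the group means correlated at -0.0812 to 0.0518 for libraries with the same number and at -0.0899 to 0.0647 for others, and 6 of 18 possible matches were best with the same number. With the replicate number as a block, limma called 0 members, with 645 (7.04% of members, against 8.33% of all sites), 643 (7.02%, against 4.55%) and 183 (2.00%, against 4.31%) lower at an unadjusted p under 0.05, and the mean differences were -0.108, -0.0806 and -0.0275 points, equal to those without it by construction. Leaving out 1 library gave mean differences of -0.123 to -0.0814, -0.0951 to -0.0539 and -0.0360 to -0.0225 points for TET1-FL and TET1-ALT against the empty vector and for TET1-FL against TET1-ALT.

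Sets restricted by distance changed most. With the nearest listed site 100 to 300 bases away, the lower separate share was 3.82% in place of 17.1 with TET1-FL and 3.04% in place of 17.5 with TET1-ALT, the mean differences were -0.0240 and 0.00807 points, and the sparse minus dense differences were -0.0049 and 0.00631 points in place of -0.0597 and -0.0526. With 0 neighbours only (41 sites) the share was 9.76% with TET1-FL, which is 4 sites, against 14.9% of all complete sites. With TET1-ALT 9 of the 41 sites were lower in this sense, against 10.1% of all complete sites. Between the isoforms the share was 0%, against 7.36%. The mean differences from the empty vector were -0.320 points with TET1-FL and -0.299 points with TET1-ALT. With each library centred on unmethylated sites with 6 or more neighbours, the members' shares were 8.27 and 11.5% and the difference between the isoforms -0.00747 points. These 2 shares have no share over all sites beside them, so whether they lie above or below it is not known. The limma shares that follow are another measure. In the limma fit so centred, 6.88% of members were lower at an unadjusted p under 0.05 with TET1-FL, against 8.13% of all sites. With TET1-ALT these were 8.80 and 4.89%. Medians over members gave -0.0533 points for TET1-FL, and medians in both sets gave -0.0267 for TET1-ALT in sparse minus dense. Dense sites weighted to the levels of the members gave -0.0319 points for TET1-FL, and a limit of 10% gave -0.0538 points between the isoforms. The cause of these changes was not tested. The other 136 alternative values of the comparisons, and all 210 of the named sites, kept their direction or moved by less than the spread.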

Other observations

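The 41 members with no other listed site within 1000 bases had their nearest listed site 1060 to 19541 bases away and averaged 1.42, 1.496 and 1.56% in the empty vector libraries, 1.20, 1.12 and 1.25% with TET1-ALT and 1.08, 1.26 and 1.16% with TET1-FL. Both TET1 groups lay below the empty vector with no overlap, and their covered share of listed sites was 0.168 to 0.235% in the 9 libraries.

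Values of single libraries stood far from the rest at 3 sites. At chr19:22700259 empty vector replicate 3 read 16.88% and the other 8 libraries 0.60 to 6.41%. At chr2:232650900 TET1-ALT replicate 3 read 16.18%, and at chr20:60741229 empty vector replicate 3 read 12.97% and TET1-FL replicate 1 read 9.37%, while TET1-FL replicate 3 read 0.28%. These sites had the largest SD over the 9 libraries among the members, at 5.05, 4.83 and 4.67 points.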
